A study of Mus musculus with 10 samples.

Results

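The comparison concerned male mouse embryonic stem cell (mESC) cultures after 10 passages in Keniry2022 conditions against the cultures from which they were grown. It rests on 4 of the 10 DNA sequencing libraries of the series, those of replicates 1 and 2 at p0 and at p10 in Keniry2022 conditions, and on the 19 autosomes. The reads were summed in bins of 1 Mb, of which 2391 autosomal bins had enough reads to be used. Each replicate was an independently derived C57Bl/6 line that was split into both protocols at p0, so that each p10 library was set against the p0 library of its own line. These are called line 1 and line 2. All cultures had been derived in Keniry2022 conditions and were kept in 2i/LIF throughout, the p0 cultures included. The remaining libraries (p10 Mulas2019 and p20 of both protocols) entered the fit only to estimate the spread, or are set beside the result where stated.

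In 2i/LIF medium an inhibitor of MEK and an inhibitor of GSK3 are combined with the cytokine LIF, and the cells stay in the naive state of the early epiblast. The Keniry2022 protocol differs from the published Mulas2019 protocol in that cells are passaged daily, plated more densely and grown in suspension in a larger volume of medium. Stem cell cultures can take on copy number changes because cells that divide faster overgrow the rest, and DNA sequencing at low coverage reads these as a larger or smaller share of reads for a chromosome or a region. The base composition of the genome is not even. Stretches poor in G and C are long and hold few genes, among them very long genes of neurons, while stretches rich in G and C hold many short genes that most cells use.

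Depth was even among the 4 libraries, with 30515890 and 31482659 reads in line 1 (p0 and p10) and 30644653 and 32435718 reads in line 2. The median autosomal bin held 12774 to 13732 reads. Chromosome Y held 0.00145% of reads at p0 and 0.00111% at p10 in line 1 (95% Wilson intervals 0.00132 to 0.00159 and 0.00100 to 0.00123). In line 2 it held 0.0554% and 0.0570% (0.0546 to 0.0562 and 0.0561 to 0.0578). Line 2 thus held the larger share both at p0 and at p10, while the intervals of line 1 did not overlap each other. All lines are labelled male, and line 1 had few Y reads at p0 and at p10. In the libraries labelled p20 Keniry2022 the order was the opposite (0.0441% in replicate 1 and 0.000673% in replicate 2). They are named by their labels, and the counts of called bins and autosomes are given with their numbers crossed too.

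After 10 passages in Keniry2022 conditions, 97 of 2391 autosomal bins (4.06%) were called as holding a larger share of reads than at p0 and 0 as holding a smaller one. With the sex chromosomes the share was 4.05% of 2541 bins. A bin was called when its change was larger than 1.1-fold by limma's TREAT at an adjusted p under 0.05. The 97 bins were GC-poor, with a GC content of 35.7% to 39.1% (median 36.7%, against 41.7% over all autosomal bins). They had log2 fold changes (log2FC, p10 over p0) of 0.21 to 0.32, which is well short of the 0.58 that 3 copies in place of 2 in every cell would give. In bulk DNA a small change in all cells and a large change in few cells cannot be told apart.

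The sequences below are shown as examples of the base composition of a called bin and of bins at the other end of the range. They are stretches of the plus strand of GRCm38 (mm10) of 150 bases, taken near the middle of the called bin with the largest log2FC and of the 2 bins with the most negative log2FC, each chosen to have the GC content of its whole bin. G and C are in capitals. The first lies at chr3:77500130-77500279, the second at chr11:118499580-118499729 inside Rbfox3, which encodes a splicing factor of neurons, and the last at chr5:139503070-139503219. The first and the last lie outside protein-coding genes. Neither bin labelled as a loss was called.
Chromosome 3, gain: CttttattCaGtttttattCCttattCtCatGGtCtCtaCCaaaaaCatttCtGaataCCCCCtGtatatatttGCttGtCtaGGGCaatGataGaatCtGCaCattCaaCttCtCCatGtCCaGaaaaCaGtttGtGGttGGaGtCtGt
Chromosome 11, loss: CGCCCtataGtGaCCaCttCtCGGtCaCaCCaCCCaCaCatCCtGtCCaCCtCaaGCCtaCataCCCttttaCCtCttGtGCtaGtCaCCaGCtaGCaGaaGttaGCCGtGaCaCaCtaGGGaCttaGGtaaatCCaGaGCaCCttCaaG
Chromosome 5, loss: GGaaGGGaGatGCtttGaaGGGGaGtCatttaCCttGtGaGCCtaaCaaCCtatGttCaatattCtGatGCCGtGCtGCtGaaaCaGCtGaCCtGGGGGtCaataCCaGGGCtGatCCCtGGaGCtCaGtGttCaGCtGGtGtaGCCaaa
The GC content of these stretches was 36.7%, 51.3% and 50.7%.

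Call numbers rested on a narrow margin. The lowest adjusted p of an autosomal bin was 0.0364, and the called bins ended at 0.0486. With an unadjusted p under 0.05 there were 301 bins, all higher. The count was 0 in the fit without the replicate block, with voom (293 at an unadjusted p under 0.05, of which 1 was lower), without p0 replicate 1, without p0 replicate 2 and without p10 Keniry2022 replicate 2 (259, 228 and 137 at an unadjusted p under 0.05). It was 191 without p10 Keniry2022 replicate 1, 167 with the line as a fixed term, and 0 with the replicate numbers of p20 Keniry2022 crossed (305 at an unadjusted p under 0.05). With no minimum fold change 1754 bins (73.4%) passed, of which 898 were higher (37.6% of all) and 856 lower (35.8%).

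The change followed GC content across the whole range and in both lines. Bins were ranked by GC content and divided into 10 groups of 239 or 240. In the lowest group the median log2 ratio to p0 was 0.20 in line 1 and 0.26 in line 2, and all 240 bins were higher in both lines. In the highest group the medians were -0.11 and -0.14, and all 239 bins were lower in both lines. The medians passed through 0 between the fifth group (0.011 in both lines) and the sixth (-0.013 and -0.026). Of the called bins 87 lay in the lowest group (36.25% of its bins), 9 in the second and 1 in the third.

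**Figure D1:**
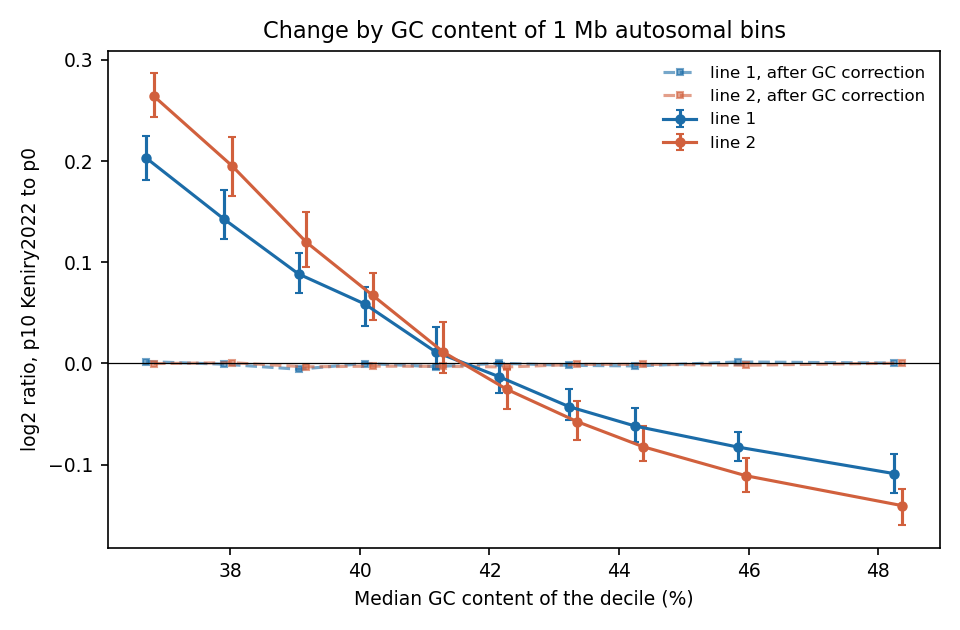
Median log2 ratio of p10 Keniry2022 to p0 (vertical axis) in 10 groups of autosomal 1 Mb bins, placed at the median GC content of the group in percent (horizontal axis). Circles are medians, bars run from the 25th to the 75th percentile of the bins of a group, and squares are medians after the GC correction. Line 1 falls from 0.20 to -0.11 and line 2 from 0.26 to -0.14, and both are flat after the correction.

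Over all autosomal bins the log2 ratio fell by 0.027 per percent GC in line 1 and by 0.035 in line 2, and Pearson's r with GC content was -0.92 and -0.93. These values describe bins that share a library and are not replicates. The share of reads in a library rose with GC content in all 4 libraries, by 0.116 log2 CPM (reads of a bin scaled to the size of its library) per percent GC in line 1 and 0.112 in line 2 at p0, and by 0.089 and 0.077 at p10. The p10 libraries therefore had a shallower relation of read share to base composition than the p0 libraries of the same line. The 2 lines at p0 lay closer to each other than either lay to its own p10 library. Each culture gave 1 library, so culture and library cannot be told apart here. When a smooth curve of log2 CPM on GC content was taken out of each library (the GC correction), the limma count was 0 with the random and with the fixed replicate block, as was the number at an unadjusted p under 0.05. The median log2FC of the 97 called bins was 0.014 after the correction.

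The lines were then compared with each other. The SD of the log2 ratio to p0 over autosomal bins was 0.102 in line 1 and 0.132 in line 2, against 0.028 between the p0 libraries and 0.019 that counting error alone would give in either line. Between the p10 libraries the SD was 0.049. Of the 2391 bins 2233 (93.4%) changed the same way in both lines, and Pearson's r between the lines over bins was 0.97. The change was larger in line 2 in 1855 bins (77.6%) and in 91 of the 97 called bins. The ranges were -0.19 to 0.33 in line 1 and -0.20 to 0.47 in line 2, and 0 bins lay above 0.5 in either line. After the GC correction the SDs were 0.027 and 0.030, and r between the lines was 0.45 (0.41 without chromosome 3). More than 1.1-fold higher were 402 bins in line 1, 544 in line 2 and 390 in both. More than 1.1-fold lower were 36, 166 and 30.

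**Figure D2:**
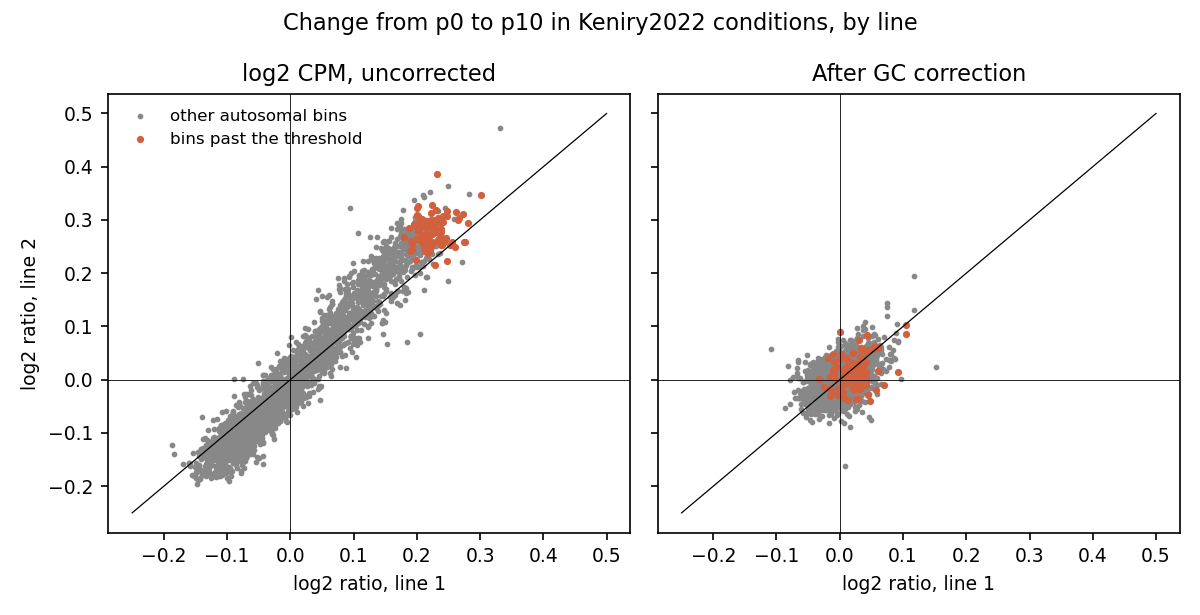
Log2 ratio of p10 Keniry2022 to p0 of each autosomal 1 Mb bin in line 1 (horizontal axis) and line 2 (vertical axis), from log2 CPM at left and after the GC correction at right. Orange points are the 97 bins past the threshold and the diagonal marks equal change. At left the points form a narrow band steeper than the diagonal (r 0.97), and at right they gather around 0.

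Gene content differed along the same axis. The 267 bins without a protein-coding gene (by gene midpoint) had median log2 ratios of 0.17 and 0.23 in lines 1 and 2, and 52 of them passed the threshold (19.5%). The 409 bins with over 15 genes had medians of -0.07 and -0.10, and 2 passed (0.489%). Bins with 1 to 5 genes had medians of 0.047 and 0.055 and bins with 6 to 15 genes had -0.03 and -0.05. GC-corrected medians of these 4 classes lay between -0.0065 and 0.0096 in the 2 lines. Bins without a gene made up 53.6% of the called bins and 11.2% of all autosomal bins.

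The bins with the largest gains were named by rule, as the 6 with the highest log2FC and the same sign in both lines. The first lay on chromosome 2 from 98000001 to 99000000. It held 2190 and 2059 CPM at p0 (lines 1 and 2) and 2755 and 2856 CPM at p10. A single 10 kb window held 90.3% to 91.8% of its reads in the 4 libraries, and the bin overlaps the gene models Gm10800 and Gm10801. Its log2FC was 0.40 with an SE of 0.45 over the whole series, and it was not called (limma adjusted p 1.0).

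On chromosome 3 from 77000001 to 78000000, where no protein-coding gene lies, the bin held 218 and 221 CPM at p0 and 269 and 281 CPM at p10. Both p10 values lay above both p0 values. The log2FC was 0.32 (SE 0.050, limma adjusted p 0.0447), the highest of the called bins, and 80 of its 100 windows of 10 kb were higher in both lines while 1 was lower in both. Its log2FC was 0.10 (SE 0.044) after the GC correction. Next on this chromosome came the bin from 44000001, also without a protein-coding gene, with 199.5 and 199.4 CPM at p0 and 243 and 254 CPM at p10 (log2FC 0.32, SE 0.060), and the bin from 72000001, which holds Sis (sucrase-isomaltase, an enzyme of the gut), with 213 and 214 CPM at p0 and 253 and 276 CPM at p10 (log2FC 0.31, SE 0.055). Neither was called (limma adjusted p 0.0836 and 0.0725). Both passed in the fit of the 4 libraries alone (limma adjusted p 0.00590 and 0.00932), and the bin from 72000001 also with the line as a fixed term (limma adjusted p 0.0322).

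The bin on chromosome 5 from 56000001, a gene desert, held 201 and 196 CPM at p0 and 236 and 256 CPM at p10 (log2FC 0.31, SE 0.040, limma adjusted p 0.0382). The bin on chromosome 1 from 110000001 overlaps Cdh7 and Cdh19, which encode cadherins, proteins of cell adhesion. It held 214 and 212 CPM at p0 and 259 and 263 CPM at p10 (log2FC 0.29, SE 0.031, limma adjusted p 0.0364). In all 6 bins the p10 libraries did not overlap the p0 libraries, which the rule that picked them favours. The 5 bins other than that on chromosome 2 had a log2FC of 0.028 to 0.096 after the GC correction.

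The 6 bins with the most negative log2FC were GC-rich. They overlap 6 to 30 protein-coding genes, and 49.4% to 51.4% of their bases are G or C. None was called (limma adjusted p 0.397 to 0.997), while all 6 were lower in the test with no minimum fold change. The bin on chromosome 11 from 118000001 overlaps Rbfox3, Cyth1, Dnah17 and Timp2 (an inhibitor of matrix metalloproteinases) and held 622 and 601 CPM at p0 and 562 and 525 CPM at p10 (log2FC -0.17, SE 0.032). On chromosome 5, the bin from 139000001 (Prkar1b, a regulatory subunit of protein kinase A, 3110082I17Rik, Elfn1 and Adap1) held 610 and 585 CPM at p0 and 551 and 514 CPM at p10 (log2FC -0.17, SE 0.030). The bin on chromosome 6 from 114000001 (Atg7, which acts in autophagy, Slc6a11, Vgll4 and Hrh1) went from 499.8 and 494 CPM to 449 and 437 CPM (log2FC -0.17, SE 0.017). The last 3 lay on chromosome 5 from 35000001 (Afap1, Sh3tc1 and Rgs12 among others) and from 112000001 (Myo18b, Sez6l, Grk3 and Tpst2) and on chromosome 4 from 141000001 (Fhad1, Spen, Fbxo42 and Ddi2), with a log2FC of -0.17, -0.17 and -0.16. In all 6 both p10 values lay below both p0 values, which the rule favours as well. GC-corrected values of the 6 bins were -0.033 to -0.022.

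**Figure D3:**
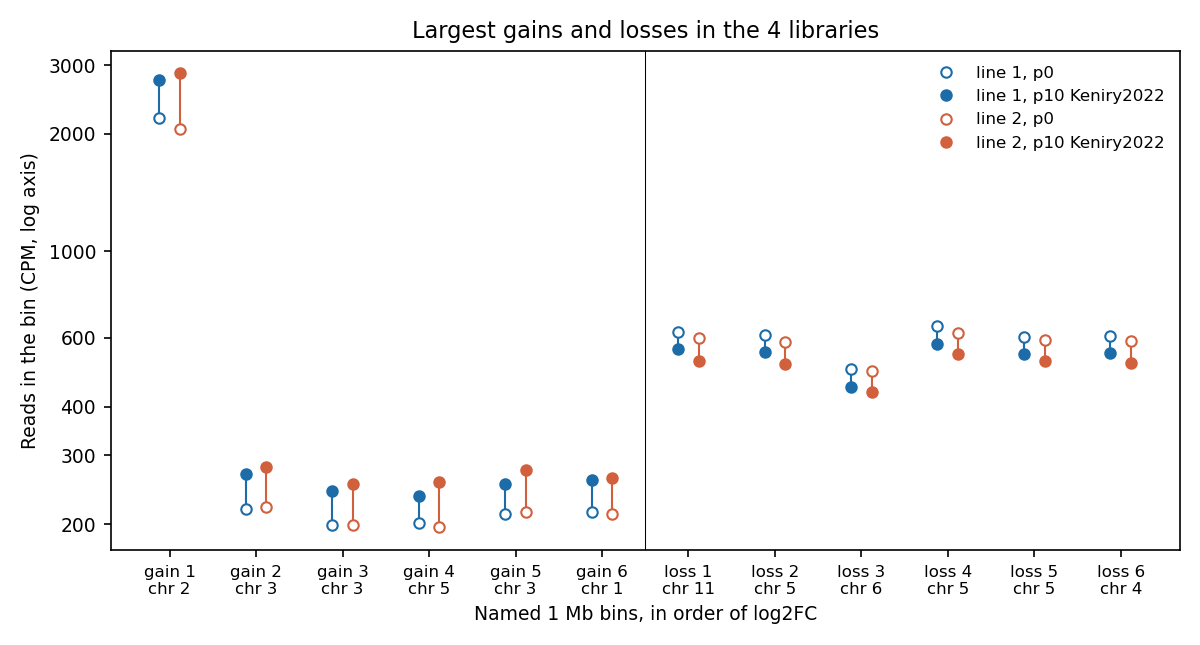
Reads in CPM (vertical log axis) of the 6 autosomal bins with the largest gains and the 6 with the largest losses, in order of log2FC (horizontal axis), for line 1 (blue) and line 2 (orange) at p0 (open circles) and at p10 Keniry2022 (filled circles). Each circle is 1 library. In every named bin both filled circles lie on the same side of both open circles, by -0.17 to 0.40 on the log2 scale. The bins were picked for the size of these changes.

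Called bins were spread over 17 autosomes, with 14 on chromosome 14, 11 on chromosome 5 and 9 on chromosome 15. Adjacent bins changed alike (Pearson's r over 2363 adjacent pairs 0.73 in line 1 and 0.74 in line 2, and 0.21 and 0.31 after the GC correction). There were 6 runs of 3 adjacent called bins and 0 longer ones. The run on chromosome 14 from 92000001 to 95000000 overlaps 1 protein-coding gene, Pcdh9, a protocadherin of neurons (log2FC 0.26 in each bin). On chromosome 5 the run from 55000001 overlaps Pcdh7 (0.24 to 0.31), the run from 59000001 overlaps G6pd2, a relative of the glucose-6-phosphate dehydrogenase gene (0.24 to 0.28), and the run from 82000001 overlaps Tecrl and Epha5, a receptor for ephrins (0.25 to 0.27). The run on chromosome 8 from 50000001 overlaps no protein-coding gene (0.25 to 0.26), and that on chromosome 14 from 111000001 overlaps Slitrk5 and Tpm3-rs7 (0.24 to 0.25). GC-corrected values of the 18 bins in these runs were -0.016 to 0.045.

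Whole chromosomes were examined next, since the gain of an entire autosome is the classic abnormality of mESC cultures. The median bin of each autosome was set against the median of all autosomal bins. Of the 19 autosomes 3 were higher (15.8%) and 5 were lower (26.3%) at p10 with limma, by at most 0.062 on the log2 scale (with the sex chromosomes, 9 of 21, or 42.9%). Chromosome 11 had the most negative shift (-0.055 in line 1, -0.068 in line 2, SE 0.017, limma adjusted p 0.0371), and its share of reads went from 5.71% and 5.66% at p0 to 5.56% and 5.45% at p10. Chromosome 5 had -0.036 and -0.068 (limma adjusted p 0.0218) and chromosome 9 had -0.041 and -0.045 (limma adjusted p 0.0218). Chromosomes 2 and 7 were the other lower ones. Of the higher ones chromosome 16 had 0.016 and 0.060 in the lines (limma adjusted p 0.0490). It was not called with no replicate block or with the line as a fixed term (limma adjusted p 0.0506 and 0.0779). Chromosome 14 had 0.031 and 0.040 (limma adjusted p 0.0279) and chromosome 15 had 0.027 and 0.010 (limma adjusted p 0.0465).

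Chromosome 11 had the highest median GC content (44.0%) and chromosome 3 the lowest (40.1%). Chromosome 3 had the largest positive shift, 0.057 in line 1 and 0.083 in line 2, and was not called (SE 0.058, limma adjusted p 0.418). This SE, like those of the other shifts, came from the fit of all 10 libraries. In the fit of the 4 libraries alone the SE of chromosome 3 was 0.011, and it was not called there either (limma adjusted p 0.108). After the GC correction the shifts of the other 18 autosomes lay within -0.0072 and 0.0082 and that of chromosome 3 was 0.027 (0.024 and 0.030 in the lines, SE 0.061), and 0 autosomes passed with limma (3 with an unadjusted p under 0.05). With each chromosome centred on its own median the SD over bins was 0.099 in line 1 and 0.129 in line 2, close to the 0.102 and 0.132 without centring. The count of 8 autosomes was 9 with the replicate numbers of p20 Keniry2022 crossed, and 6 with no replicate block or with the line as a fixed term. It was 0 without p0 replicate 1, without p0 replicate 2 or without p10 Keniry2022 replicate 2, and 0 in a fit of the 4 libraries alone.

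**Figure D4:**
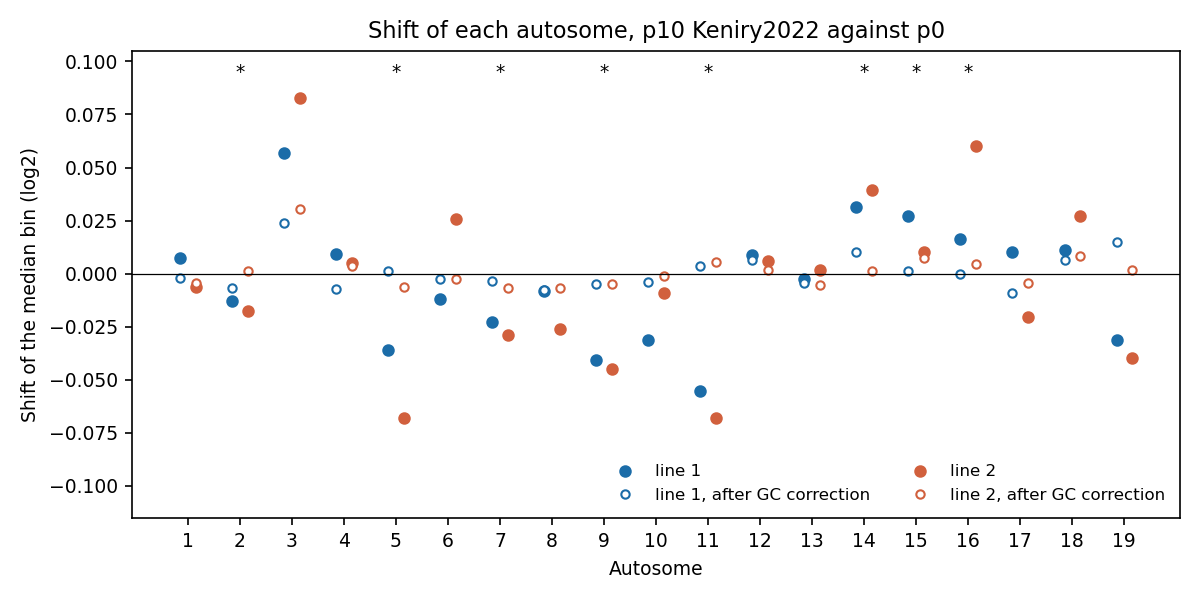
Shift of the median bin of each autosome relative to the median of all autosomal bins (vertical axis, log2), p10 Keniry2022 against p0, for line 1 (blue) and line 2 (orange), with open circles for values after the GC correction. Asterisks mark the 8 autosomes past the threshold in the uncorrected fit. Filled circles reach from -0.068 to 0.083, and open circles other than those of chromosome 3 lie within -0.009 and 0.015.

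Chromosome ends were examined as well. The first 5 Mb of sequence on each autosome (95 bins, near the centromere) had median log2 ratios of 0.026 and 0.021 in the lines and the last 5 Mb (95 bins) had -0.060 and -0.068. GC-corrected medians were 0.011 and 0.013 for the first and 0.0008 and 0.0014 for the last.

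Genes linked to naive pluripotency were examined for the share of reads of the bins that hold them. Over all autosomal protein-coding genes 157 of 20534 (0.765%) lay in a called bin and 754 in a bin with an unadjusted p under 0.05, and the median log2FC was -0.06. With no minimum fold change 17.4% of genes lay in a higher bin and 57.6% in a lower one. Of 18 genes of naive pluripotency 0 lay in a called bin with limma, which a list of this size would often give at the share of 0.765%. This and the following 4 lists had 0 members at an unadjusted p under 0.05 as well. With no minimum fold change 1 was higher and 10 were lower, and the median was -0.07. The bin of Zfp42 (Rex1, a marker of the naive state) held 319 and 331 CPM at p0 and 334 and 352 CPM at p10 (log2FC 0.08, SE 0.024, limma adjusted p with no minimum 0.0113), and that of Tet2, an enzyme that oxidises methylated cytosine, had a log2FC of 0.04 (SE 0.046). At the other end the bin of Fgf4, the growth factor that drives cells out of the naive state, held 633 and 599.6 CPM at p0 and 557 and 545 CPM at p10 (log2FC -0.16, SE 0.024, limma adjusted p with no minimum 1.96e-04), and that of Tcl1, a coactivator of Akt, had -0.14 (SE 0.018). Nanog and Dppa3 share a bin with a log2FC of -0.03, and the bins of Pou5f1 and Sox2 had -0.11 and -0.01.

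Genes of the pathways that 2i/LIF acts on had 0 of 19 members in a called bin, and with no minimum fold change 0 were higher and 16 were lower (median -0.08). The highest were Spry2 and Dusp6, which both restrain ERK signalling (log2FC 0.00 and -0.03), and the lowest were Socs3, a feedback inhibitor of LIF signalling (-0.13), and Gsk3a, a target of the GSK3 inhibitor (-0.13). Growth control genes, the usual candidates when a culture is overgrown, had 0 of 21 members in a called bin, with 1 higher and 13 lower with no minimum (median -0.07). The bin of Myc held 360.0 and 373 CPM at p0 and 382 and 400.2 CPM at p10 (log2FC 0.09, SE 0.023), and the bin of Cdk6, a cyclin-dependent kinase, had 0.01. The lowest were Ccnd1, encoding cyclin D1, which lies in the bin of Fgf4 and has its value, and Akt1, a kinase of survival signalling (-0.16).

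Among genes of DNA methylation and Polycomb 0 of 14 lay in a called bin, with 1 higher and 9 lower with no minimum (median -0.07). Trim28, a corepressor of retroelements, and Ezh2, the methyltransferase of Polycomb complex PRC2, had 0.07 and -0.01, and Uhrf1, which guides maintenance methylation, and Dnmt3b, a de novo methyltransferase, had -0.14 each. Among genes of replication and mitosis 0 of 20 lay in a called bin, with 2 higher and 13 lower with no minimum (median -0.08). Mad2l1, of the spindle checkpoint, and Mcm4, of the replicative helicase, had 0.08 each, and Cdt1, a replication licensing factor, and Aurka, a mitotic kinase, had -0.16 and -0.14. With the GC correction the medians of these 5 lists lay between -0.0050 and 0.0053.

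Very long genes of neurons stood at the other end. Of 25 such genes 3 lay in a called bin (8 at an unadjusted p under 0.05), and with no minimum fold change 20 were higher and 3 lower (median 0.14). The bin of Pcdh9 held 222 and 219 CPM at p0 and 259 and 267 CPM at p10 (log2FC 0.26, SE 0.028, limma adjusted p 0.0384). The bin of Csmd3, encoding a large membrane protein of neurons, held 208 and 211 CPM at p0 and 244 and 255 CPM at p10 (log2FC 0.25, SE 0.030, limma adjusted p 0.0447). Naaladl2 had the highest value, 0.28, and was not called (SE 0.052, limma adjusted p 0.106). The lowest were Cdh13 (-0.13) and Auts2 (-0.10), whose bins have a GC content of 45.5% and 44.6% against 35.8% for Pcdh9 and 35.7% for Csmd3. The median of the list was -0.02 after the GC correction.

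**Figure D5:**
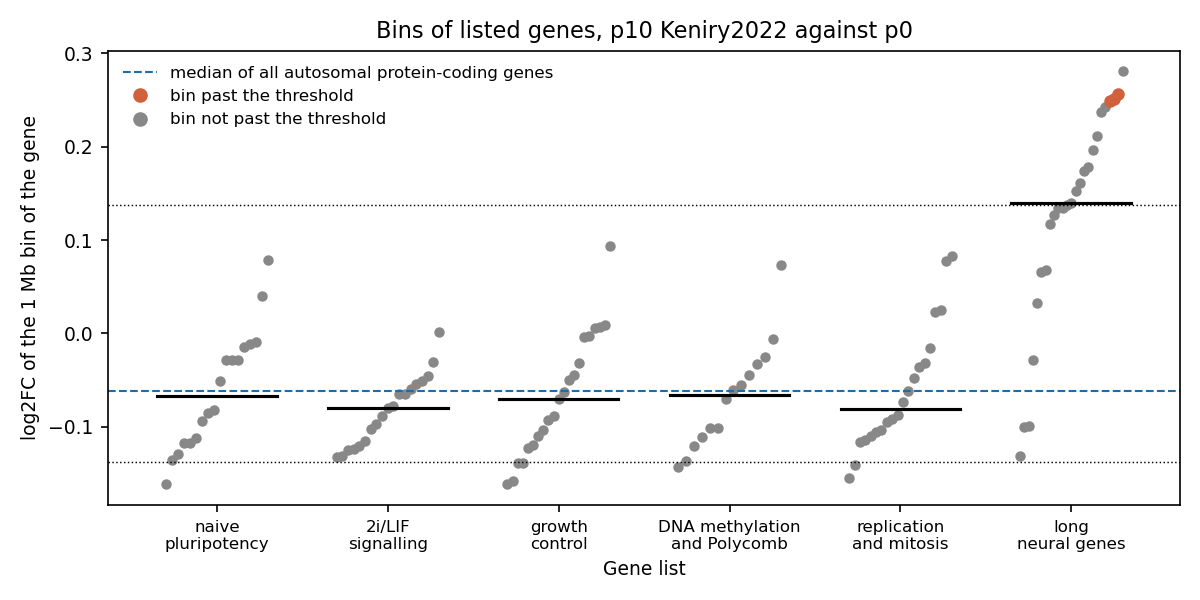
Log2FC (p10 Keniry2022 against p0, vertical axis) of the 1 Mb bin that holds each gene of 6 lists (horizontal axis). Each point is 1 gene, orange where its bin passed the threshold, and bars are list medians. The dashed line is the median of all autosomal protein-coding genes (-0.06) and dotted lines mark a 1.1-fold change. Long neural genes have a median of 0.14, and the other 5 lists lie between -0.08 and -0.07.

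Gene families in large clusters were examined too. Of the 82 bins that hold olfactory receptor genes 2 were called, against 4.06% of all autosomal bins, and they held 53 of the 1128 genes. The median log2FC was 0.02 over these bins and 0.10 over genes. Of the 46 bins that hold vomeronasal receptor genes, which detect pheromones, 5 were called, and they held 37 of the 268 genes in bins that were used (median 0.07 over bins and 0.09 over genes). The Hox clusters, replication-dependent histone genes, ribosomal protein genes, clustered protocadherins, keratins and beta-defensins had 0 members in called bins with limma (1 ribosomal protein gene and 2 beta-defensin genes at an unadjusted p under 0.05). Their medians over genes were -0.04, 0.05, -0.09, 0.05, -0.12 and 0.03 in this order, and over bins -0.04, 0.0008, -0.10, 0.05, -0.11 and 0.01. Members of such a family share few bins, for example 57 protocadherin genes in 1 bin and 53 keratin genes in 4, and are not independent.

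The changes that the GC correction did not remove were small. With no minimum fold change and after the correction, 2 autosomal bins passed with limma, both higher (242 with an unadjusted p under 0.05). The first, on chromosome 17 from 22000001 to 23000000, overlaps a cluster of zinc finger genes (Zfp943 and its neighbours) and 3 vomeronasal receptor genes, and went from 255 and 257 CPM to 293 and 300.3 CPM. Its log2FC was 0.10 after the correction (0.105 and 0.103 in the lines, SE 0.012, limma adjusted p 0.0129). The second, on chromosome 7 from 59000001 to 60000000, holds the imprinted gene Ube3a and overlaps the ends of the imprinted genes Snrpn and Snurf, and went from 151 and 150.01 CPM to 165 and 165 CPM (log2FC after the correction 0.12, SE 0.017, limma adjusted p 0.0345). Repeats make up 48.2% and 60.7% of these bins, and in the chromosome 7 bin 67 of the windows had the 20 reads needed to be compared, of which 33 were higher and 8 lower in both lines.

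By rule the largest gains after the GC correction were those of the chromosome 2 bin from 98000001 (0.16, SE 0.15) and the chromosome 7 bin, followed by the bin on chromosome 9 from 3000001 (0.11, SE 0.022), which overlaps Gucy1a2, Cwf19l2, Alkbh8 and Gm10717 and where 1 window held 6.4% to 8.4% of reads. The largest losses were on chromosome 14 from 95000001 (-0.07, SE 0.016, 4921530L21Rik), chromosome 13 from 105000001 (-0.06, SE 0.015, with Rnf180, Rgs7bp, 4933425L06Rik and Htr1a, a serotonin receptor gene) and chromosome 17 from 59000001 (-0.06, SE 0.016, Nudt12). Before the correction these 3 bins had positive values, 0.19, 0.06 and 0.17.

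Finally, the cultures were set beside the same lines in Mulas2019 conditions at p10 and in Keniry2022 conditions at p20. Cells in Mulas2019 conditions are split every other day and those in Keniry2022 conditions daily, so at the same passage the former had been longer in culture, and protocol and time in culture cannot be told apart in this comparison. In the direct limma comparison at p10, 206 autosomal bins (8.62%) were higher and 467 (19.5%) lower in Keniry2022 than in Mulas2019 conditions, and the split was 108 higher and 506 lower where each library was centred on its autosomal median. With the p20 Keniry2022 numbers crossed the counts were 204 and 467. The higher bins numbered 21 without p10 Keniry2022 replicate 1, 83 without p10 Mulas2019 replicate 1 and 123 without p10 Mulas2019 replicate 2. The lower bins numbered 302 without p10 Keniry2022 replicate 1. In the lowest GC group the medians against p0 were 0.20 and 0.26 in Keniry2022 and 0.52 and 0.59 in Mulas2019 conditions, and in the highest group -0.11 and -0.14 against -0.35 and -0.32. Both sets share the p0 libraries. The chromosome 5 bin from 56000001 was lower in Keniry2022 than in Mulas2019 conditions by a log2FC of -0.34 (limma adjusted p 0.00156), and the chromosome 11 bin from 118000001 was higher by 0.24 (limma adjusted p 0.0136). With the GC correction 0 bins passed in limma in either direction, and 1 in each direction had an unadjusted p below 0.05.

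Between p10 and p20 in Keniry2022 conditions 0 autosomal bins passed with limma and with voom, and 1 had an unadjusted p under 0.05 with each. The limma count was also 0 with the p20 numbers crossed. With no minimum fold change 1161 bins differed. The median difference (p20 minus p10) was -0.13 in the lowest GC group and 0.08 in the highest. This comparison shares the p10 libraries with that against p0.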

How the data were processed

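DNA from 2 male mESC lines was sequenced as single-end reads, demultiplexed with bcl2fastq and mapped to mm10 with Bowtie2, per the labels and methods, which name no versions. The authors deposited log2 values in windows of 10 kb. Each is the log2 of whole reads scaled to the largest library, with 0.9 reads in empty windows (100.0% whole at a tolerance of 0.1). Values were made linear, summed in 1 Mb bins, scaled to CPM and returned to log2. Bins under 0.1 of the median bin were removed, leaving 2541. Blacklisted regions were not removed.

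All 10 libraries entered 1 limma fit (limma 3.58.1, statmod 1.5.0, R 4.3.3) with 5 groups and the line as a random block (duplicateCorrelation gave 0.132). TREAT tested for changes beyond 1.1-fold, with Benjamini-Hochberg adjustment over 2541 bins at 0.05. In the methods 1.1 stands as a log2 value, which was tried too. Chromosome medians were tested with limma over 21 chromosomes. For the GC correction, loess (span 0.3) related the log2 CPM of autosomal bins to their GC content in each library and the curve was taken off. The fit was tested on simulated data.

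Same-numbered libraries come from the same line by the study design, and the differences between lines at p0 and at p10 correlated with r 0.175 over GC-corrected bins. Wilson intervals cover counting error only. Named bins are the 6 largest gains and losses with the same sign in both lines (3 after the GC correction) and runs of at least 3 called bins, with up to 4 genes of longest overlap. Named genes are the 2 highest and 2 lowest of each list, and a gene lies in the bin of its midpoint. Pou5f1, Sox2, Nanog, Dppa3, Csmd3 and the chromosome 17 bin from 22000001 were named after their values were seen. Some items that these rules name are not reported here. Members, lists and tests were chosen with earlier results of these data known.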

Additional observations from a re-analysis of the deposited data

Results flagged for a closer look

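The protocols were also tested against each other at p10, which is the test of the difference between their changes from p0. In limma's comparison of p10 Keniry2022 with p10 Mulas2019, 206 autosomal bins were higher and 467 lower in Keniry2022 conditions. After the GC correction both counts were 0.

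Chromosome X lies outside the autosomes described here. At p10 in Keniry2022 conditions 6 of its 149 bins passed the threshold, all higher than at p0, against 4.06% of autosomal bins, so that this count is close to the background. Its median bin was higher by 0.14 relative to the autosomes (SE 0.021, limma adjusted p 0.0102). After the GC correction the shift was 0.017 (SE 0.0031, limma adjusted p 0.0419).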

How the results depend on the processing

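The 97 higher autosomal bins became 0 with voom on recovered reads, with a minimum log2FC of 1.1, with no filter on low bins (297 at an unadjusted p under 0.05), with bins under 0.5 of the median removed, with libraries centred on the autosomal median (289) and with p20 Keniry2022 replicate numbers crossed, an alternative chosen after seeing the data. They were 1754 with no minimum fold change (898 higher, 856 lower), 62 in 500 kb bins (of 4772) and 27 in 2 Mb bins (of 1211). They were 101 with empty windows at 0 reads and 98 with the 4 libraries alone, which were fitted without a block since no correlation could be estimated. With single libraries left out they ranged from 0 to 191, all higher.

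The replicate block as a fixed term gave 167 bins, and no replicate block gave 0. With the GC correction the count was 0 under the random and the fixed replicate block, and with the correction and no minimum fold change, chosen after seeing the data, it was 2, both higher.

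Bins higher in Keniry2022 than in Mulas2019 conditions (206) became 0 with the GC correction under either replicate block or a minimum log2FC of 1.1, 1015 with no minimum, 108 with centred libraries, 1 with the GC correction and no minimum, and 21 to 298 with single libraries left out. Bins lower there (467) became 0, 0, 939 and, with the GC correction and no minimum, 6, and ranged from 302 to 521. Between p20 and p10 there were 1161 with no minimum fold change and 0 with each p10 library and each p20 Keniry2022 library left out.

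The 8 called autosomes became 0 with the GC correction under either replicate block, 5 with no filter, 0 with the 4 libraries alone, and 0 to 8 with libraries left out. The shift of chromosome 11 turned to 0.0048 with the GC correction. The bins named for losses after the correction turned from positive to -0.069 (chromosome 14 from 95000001), -0.062 (chromosome 13 from 105000001) and -0.061 (chromosome 17 from 59000001). The rule that named them fixes only the negative sign after the correction. The SD over bins fell to 0.0270 and 0.0298 with the correction. The list medians became 0.0045 (naive pluripotency), -0.0044 (2i/LIF signalling), -0.0050 (growth control), 0.0031 (DNA methylation and Polycomb), 0.0053 (replication and mitosis) and -0.019 (long neural genes). With single libraries left out they ranged from -0.082 to -0.049, -0.101 to -0.065, -0.086 to -0.060, -0.088 to -0.051, -0.088 to -0.055 and 0.113 to 0.179 in this order. Among 272 values of named bins under alternatives, 34 were lost calls, 17 were gained calls and 9 had turned sign. Most of the named bins had no call to lose, and their values moved towards 0 or past it with the GC correction. The cause of these dependences was not tested. Counting error gave an SD of 0.019 over bins in each line, below the 0.028 between the p0 libraries.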
